A study of Mus musculus with 2 samples.

Results

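The extracellular signal-regulated kinases ERK1 and ERK2 are switched on by fibroblast growth factor (FGF) through RAS, RAF and the kinase MEK, and they then induce genes that hold the same pathway back. This group of feedback and target genes was followed through the return of mouse primed epiblast stem cells (mEpiSCs) to the naive state under AICAR, an activator of the kinase AMPK, and LIF. The genes were chosen by name from the pathway, and all 9 (Dusp6, Dusp4, Spry2, Spry4, Spred1, Il17rd, Etv4, Etv5 and Egr1) were found among the 33963 gene symbols of the single-cell read table. Dusp6 and Dusp4 encode phosphatases that act on mitogen-activated protein kinases, Dusp6 mainly on ERK in the cytoplasm and Dusp4 in the nucleus. Spry2, Spry4 and Spred1 encode inhibitors that act at the level of RAS and RAF, and Il17rd encodes Sef, a membrane protein that restrains FGF signaling. Etv4 and Etv5 are ETS transcription factors of the PEA3 family, and Egr1 is an immediate early zinc finger factor. In mouse pluripotent cells FGF4 and ERK push naive cells toward differentiation, and a MEK inhibitor is one of the components that keep them naive, whereas primed cells are grown with added FGF.

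The single-cell data held 5 populations, each labelled with an oligonucleotide tag through antibodies to CD9 and CD63 and pooled in 1 cDNA library, so that each population was 1 sample. Naive mESCs (the Rex1-GFP line, 801 cells) were grown in 2iL, which holds the MEK inhibitor PD0325901, the GSK3 inhibitor CHIR99021 and LIF. Primed mEpiSCs (the Oct4GIP line, 1826 cells) were grown with FGF2 and Activin A. The d8 cells (9627) and d16 cells (4315) were Oct4GIP cells after 8 or 16 days of AICAR and LIF on mouse embryonic fibroblast (MEF) feeders in a serum-containing Basal medium, with no MEK inhibitor or FGF2 listed. The d16+10p cells (1151) were d16 cells passaged 10 times in 2iL. The strain is given as 129/Ola for the whole pool. The populations allow the ERK genes to be read beside the MEK inhibitor, which naive and d16+10p cells received, and beside the naive markers, which some d16 cells gained with no listed MEK inhibitor. Naive and d16+10p cells also come from different lines, so line and history cannot be told apart between these 2 populations.

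Within d16, 1278 cells (29.6%) had Dppa5a, a naive marker, at 1000 CPM (counts per 1000000 reads of the cell) or more and are called Dppa5a-high, and the other 3037 are called Dppa5a-low. A further 111 cells lay between 500 and 1000 CPM and 184 of the high cells between 1000 and 2000 CPM. Levels below are reads summed over the cells of a group and scaled to a total of 1000000, with the 95% Poisson interval of the sum in brackets where it is given. Amplified reads are not independent molecules, so every interval covers counting error only. With 1 sample per group there is no replicate error and no test was made. A ratio of 2-fold, computed as log2 of CPM + 1, was used as the mark of size, and the share of all genes past it is given beside each count.

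The tags did not each hold 1 kind of cell. More cells carried the naive, primed, d8 and d16+10p tags than the paper lists as collected, and fewer carried the d16 tag. A tag can therefore include cells of another culture, which was not tested. For the primed sample, the paper took the cells without Oct4 (Pou5f1) to be MEF feeders. Clustering without the ERK genes gave a home cluster, high in the pluripotency gene Pou5f1, that held 64.0% of naive, 27.6% of d16 and 76.9% of d16+10p cells but only 22.8% of primed cells (417 cells). No Pou5f1-high cluster had at least 50 d8 cells. The summed level of 8 fibroblast markers was 1742 CPM over all primed-tagged cells and 454 CPM in their home cluster, while the 8 primed markers reached 453 and 722 CPM. The 9 naive markers summed to 3814 CPM in naive, 5716 CPM in d16 Dppa5a-high, 4010 CPM in d16+10p and 619 CPM in primed cells. Dppa5a is 1 of these 9 markers, so the split itself raised the sum of the d16 Dppa5a-high cells. The median Dppa5a level per cell was 3611 CPM in these cells and 2289 CPM in naive cells. Results are therefore given for all cells of a tag, with values of the home clusters beside them. For d16, home cluster values are those of the Dppa5a-high cells that lie in it. These were 1135 (88.8%) of the Dppa5a-high cells. No cell number occurred under more than 1 tag, and the median depth was 8691 to 21551 reads per cell across the 6 groups.

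All 9 genes are annotated as protein coding in GRCm38 (GENCODE M21). Dusp6 spans chr10:99263231-99267489, Dusp4 chr8:34807297-34819894, Spry2 chr14:105891947-105896819, Spred1 chr2:117121374-117182279 and Il17rd chr14:27038941-27107286. Etv4 spans chr11:101769742-101785371 and Etv5 chr16:22381309-22439719. The RefSeq promoter table (GRCm38.p6, 250 bases before to 50 bases after the start) held 5 of the 9 genes, with 6 windows. Shown here are the windows of Dusp6 and Il17rd, which were higher in primed cells, of Etv5, which had the opposite pattern (the upstream one of its 2 windows), and of Spry2, the only one of the 6 windows with the ETS core CCGGAA, printed in capitals. The window of Spred1, also higher in primed cells, was searched but is not printed.
Dusp6, chr10:99262981-99263280, plus strand: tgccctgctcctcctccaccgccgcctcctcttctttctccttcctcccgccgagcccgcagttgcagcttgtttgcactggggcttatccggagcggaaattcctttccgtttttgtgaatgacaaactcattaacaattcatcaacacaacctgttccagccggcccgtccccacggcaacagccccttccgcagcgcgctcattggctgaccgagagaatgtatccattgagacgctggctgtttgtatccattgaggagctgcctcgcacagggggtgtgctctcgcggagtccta
Il17rd, chr14:27038751-27039050, plus strand: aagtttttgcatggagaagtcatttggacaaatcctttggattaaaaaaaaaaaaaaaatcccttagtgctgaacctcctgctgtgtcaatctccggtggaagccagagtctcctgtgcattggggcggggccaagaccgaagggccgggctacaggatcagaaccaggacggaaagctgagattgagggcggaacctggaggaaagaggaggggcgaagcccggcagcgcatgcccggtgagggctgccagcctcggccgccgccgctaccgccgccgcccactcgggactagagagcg
Etv5, chr16:22439521-22439820, minus strand: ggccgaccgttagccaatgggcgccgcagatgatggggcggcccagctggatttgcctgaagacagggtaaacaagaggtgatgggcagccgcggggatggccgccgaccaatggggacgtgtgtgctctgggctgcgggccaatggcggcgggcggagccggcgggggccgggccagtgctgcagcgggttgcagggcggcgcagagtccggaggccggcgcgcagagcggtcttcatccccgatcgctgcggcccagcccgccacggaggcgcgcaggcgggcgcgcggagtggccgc
Spry2, chr14:105896770-105897069, minus strand: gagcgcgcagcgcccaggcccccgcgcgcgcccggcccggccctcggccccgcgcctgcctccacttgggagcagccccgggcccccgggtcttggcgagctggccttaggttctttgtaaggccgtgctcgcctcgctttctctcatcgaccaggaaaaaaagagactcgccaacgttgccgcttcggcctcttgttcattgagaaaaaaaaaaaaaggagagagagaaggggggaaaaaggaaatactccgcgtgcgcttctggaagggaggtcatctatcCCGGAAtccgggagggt

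Both strands were searched for CCGGAA, for TGACG (part of the cAMP response element) and for the E-box CACGTG, which can overlap one another only at their ends. Of all 32851 windows of this length, 14.9% held CCGGAA, 20.8% held TGACG and 7.15% held CACGTG. None of the 6 windows of these genes held TGACG or CACGTG. These are matches of letters only, and the windows cover a small part of each gene's control region. For Dusp4, Spry4, Etv4 and Egr1 no promoter sequence is shown.

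**Figure D1:**
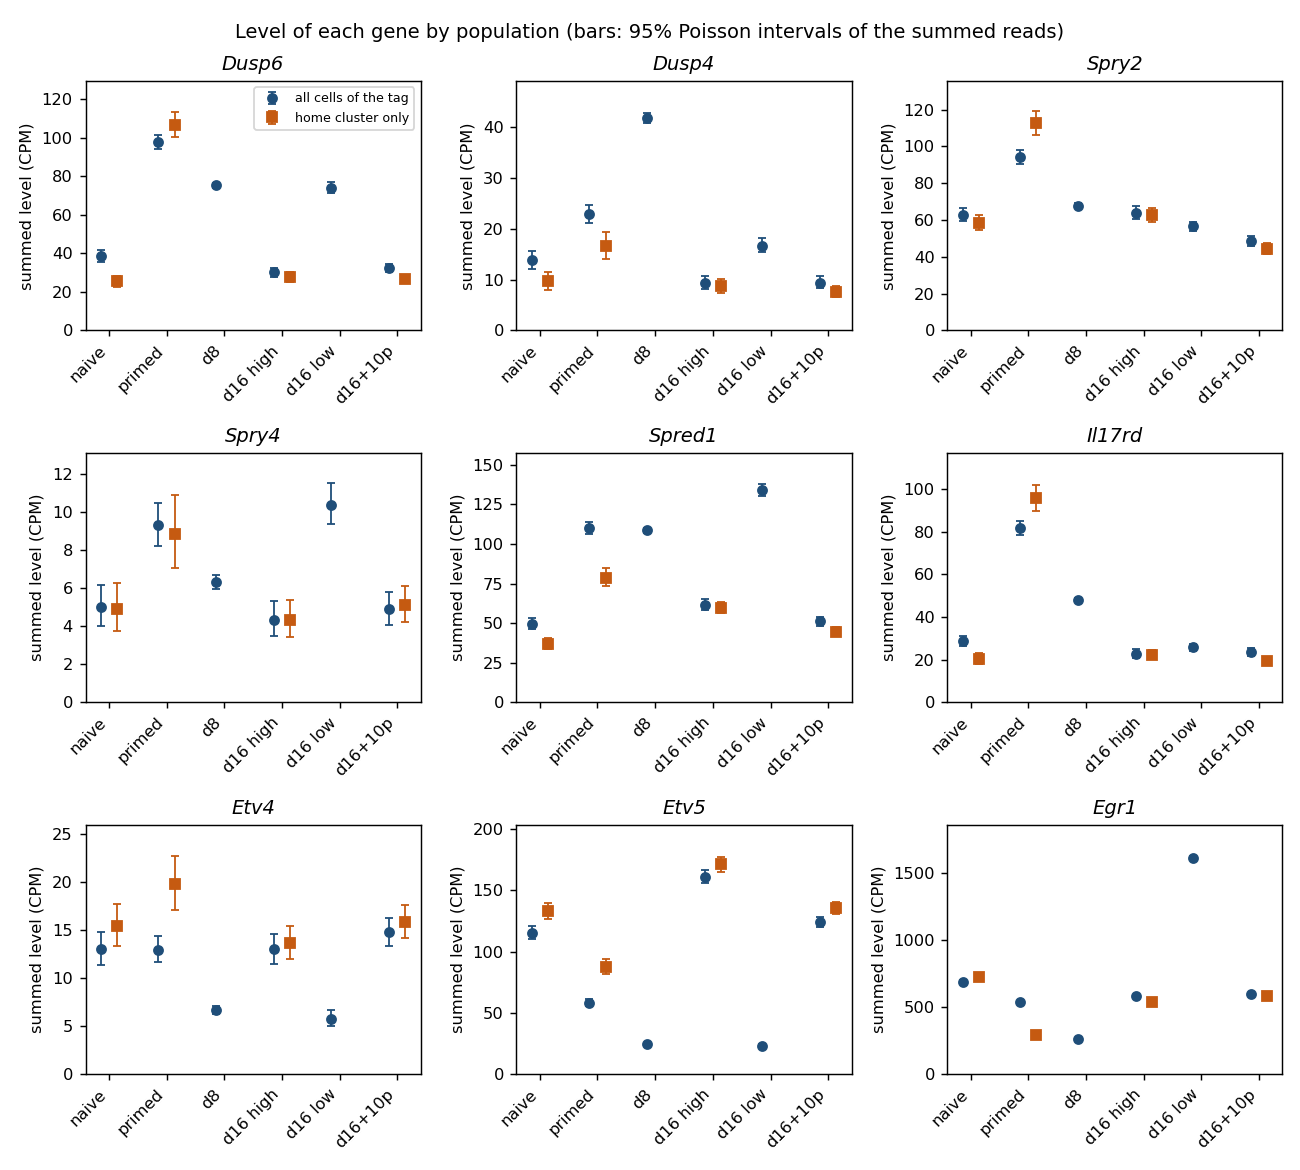
Each panel plots the summed level of 1 gene in CPM (y axis, from 0) in the 6 groups, with 95% Poisson intervals, for all cells of the tag (blue circles) and for the home cluster only (orange squares, not drawn for d8 and d16 Dppa5a-low cells). Dusp6 and Il17rd were highest in primed cells and low in naive, d16 Dppa5a-high and d16+10p cells, while Etv5 was highest in d16 Dppa5a-high cells.

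Dusp6, the ERK phosphatase, was higher in primed cells than in any group rich in naive cells. Its level was 38.6 CPM (35.7 to 41.6) in naive, 97.9 CPM (94.2 to 102) in primed, 75.4 CPM in d8, 30.1 CPM (27.8 to 32.6) in d16 Dppa5a-high, 74.0 CPM in d16 Dppa5a-low and 32.4 CPM (30.3 to 34.7) in d16+10p cells. The d16 Dppa5a-high cells, grown with no listed MEK inhibitor, thus lay beside the populations that received it. In home clusters the contrast was wider, with 25.4 CPM in naive, 106 CPM in primed, 27.7 CPM in d16 and 26.5 CPM in d16+10p cells, and the intervals of naive, d16 and d16+10p overlapped. After thinning each cell to 5000 reads, 16.2% of naive, 30.4% of primed, 12.0% of d16 Dppa5a-high and 13.8% of d16+10p cells had a Dusp6 read, against 38.7%, 50.2%, 29.8% and 36.1% without thinning. A summed level alone cannot tell fewer cells with the RNA from less RNA per cell, and these shares followed the order of the levels.

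Il17rd, which encodes Sef, had the same order of groups at its extremes. Its level was 28.6 CPM in naive, 81.6 CPM in primed, 47.9 CPM in d8, 22.7 CPM in d16 Dppa5a-high, 25.8 CPM in d16 Dppa5a-low and 23.6 CPM in d16+10p cells. Unlike Dusp6, Il17rd was low in both parts of d16. In home clusters it was 20.4 CPM (18.0 to 23.0) in naive, 95.8 CPM (89.8 to 102) in primed, 22.2 CPM in d16 and 19.3 CPM in d16+10p cells. The thinned share of cells with an Il17rd read was 8.89% (7.36 to 10.6) in d16 Dppa5a-high and 9.06% in d16 Dppa5a-low cells, against 6.97% (5.34 to 8.92) in the macrophage-like cluster, which had the lowest Il17rd level of all and a median of 17411 reads per cell. The d16 shares were thus close to that of this cluster, and so were the home cluster shares of naive (8.88%) and d16+10p cells (9.03%). The part of free RNA in these shares was not tested.

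Spred1 and Spry2 were also highest in primed cells among the home clusters, with smaller contrasts. Spred1 was 49.5 CPM in naive, 110 CPM in primed, 109 CPM in d8, 61.7 CPM in d16 Dppa5a-high, 134 CPM in d16 Dppa5a-low and 51.2 CPM in d16+10p cells. The primed level of Spred1 was 78.8 CPM in the home cluster, lower than over all primed-tagged cells. Spry2 was 62.9 CPM in naive, 94.2 CPM in primed, 67.8 CPM in d8, 64.1 CPM in d16 Dppa5a-high, 56.6 CPM in d16 Dppa5a-low and 48.6 CPM in d16+10p cells. Primed cells stood above the other 5 groups, which ranged from 48.6 to 67.8 CPM. In home clusters Spry2 was 58.5 CPM in naive, 112 CPM in primed, 62.7 CPM in d16 and 44.4 CPM in d16+10p cells.

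Dusp4, the nuclear phosphatase, was highest at d8. It was 13.9 CPM in naive, 22.8 CPM in primed, 41.8 CPM (40.9 to 42.8) in d8, 9.39 CPM in d16 Dppa5a-high, 16.7 CPM in d16 Dppa5a-low and 9.42 CPM in d16+10p cells. In home clusters it was 9.65 CPM in naive, 16.6 CPM in primed, 8.74 CPM in d16 and 7.60 CPM in d16+10p cells. Cluster 1, led by Olr1, Lox and Ccl2 and left unnamed, held 47.2% of the Dusp4 reads of d8 with 25.1% of all d8 reads. Spry4 was low throughout, between 4.33 CPM in d16 Dppa5a-high and 10.4 CPM in d16 Dppa5a-low cells, and the top 1% of cells held 26.3% to 34.4% of its reads in the 6 groups. The thinned share of cells with a Spry4 read was lowest in d16 Dppa5a-high (1.45%, 0.86 to 2.29) and highest in d16 Dppa5a-low cells (3.92%, 3.19 to 4.76). By cluster it was 0.867% in cluster 10, 2.52% in the macrophage-like cluster and 7.10% in the fibroblast-like cluster 6. The part of free RNA in these low shares was not tested.

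The ETS factor Etv5 went the other way from Dusp6. It was 115 CPM (110 to 121) in naive, 58.2 CPM (55.4 to 61.1) in primed, 24.9 CPM in d8, 161 CPM (156 to 166) in d16 Dppa5a-high, 22.9 CPM in d16 Dppa5a-low and 124 CPM (120 to 128) in d16+10p cells. All 3 populations rich in naive cells had more Etv5 than primed cells, and the d16 cells grown with no listed MEK inhibitor had the most. The thinned share of cells with an Etv5 read was 38.1% in naive, 19.4% in primed, 48.1% in d16 Dppa5a-high and 41.1% in d16+10p cells, while the 9.89% of d8 and 9.75% of d16 Dppa5a-low cells were near the 6.49% of the macrophage-like cluster. In home clusters Etv5 was 133 CPM in naive, 87.5 CPM in primed, 171 CPM in d16 and 135 CPM in d16+10p cells.

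Etv4, the close relative of Etv5, was nearly level among the pluripotent groups. It was 13.0 CPM in naive, 12.9 CPM in primed, 12.9 CPM in d16 Dppa5a-high and 14.7 CPM in d16+10p cells, with overlapping intervals, and 6.66 CPM in d8 and 5.76 CPM in d16 Dppa5a-low cells. In home clusters primed cells had 19.7 CPM (17.0 to 22.7) and the other 3 groups had 13.6 to 15.8 CPM. Egr1 was 688 CPM in naive, 535 CPM in primed, 265 CPM in d8, 580 CPM in d16 Dppa5a-high, 1611 CPM in d16 Dppa5a-low and 594 CPM in d16+10p cells. The primed home cluster held 19.2% of the Egr1 reads of its tag with 35.3% of all reads, so that Egr1 was 290 CPM there, below the 723 CPM of the naive, 535 CPM of the d16 and 582 CPM of the d16+10p home clusters.

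**Figure D2:**
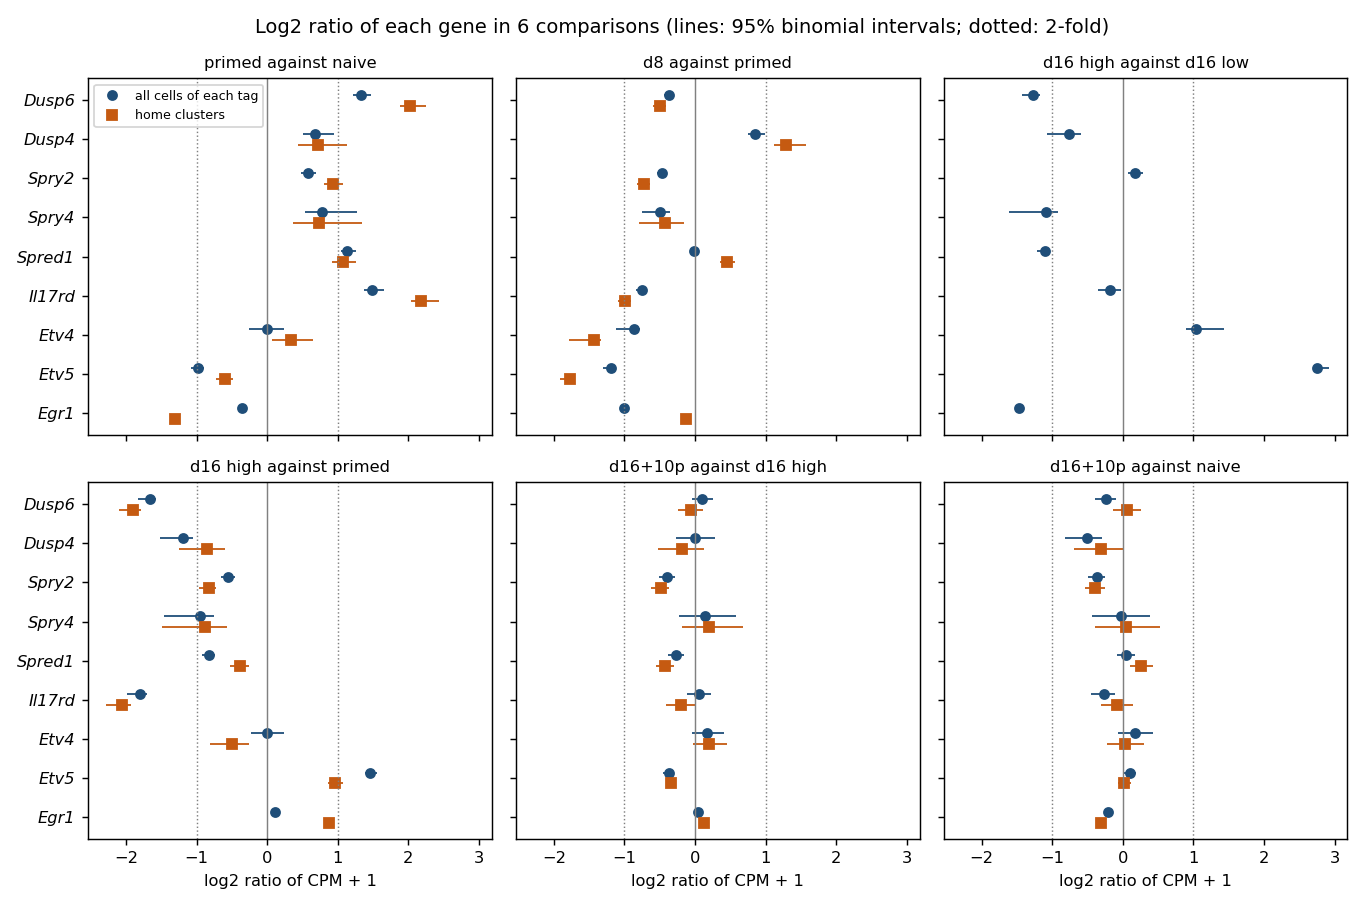
Each panel plots the log2 ratio of CPM + 1 (x axis) of the 9 genes (y axis) in 1 comparison, for all cells of each tag (blue circles) and home clusters (orange squares, with all d8 cells where d8 is compared), with 95% binomial intervals. In the 2 comparisons of d16+10p cells every point lay inside the dotted 2-fold lines, while Dusp6 and Il17rd passed them in primed against naive and in d16 Dppa5a-high against primed cells.

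Primed cells were compared with naive cells to ask how the genes differ between both states of pluripotency. The cells are of different lines, and FGF2 and Activin A on one side and the MEK inhibitor, CHIR99021 and LIF on the other cannot be told apart. Il17rd (log2 ratio 1.48), Dusp6 (1.32) and Spred1 (1.13) were at least 2-fold higher in primed cells, so that 3 of the 8 members with 10 CPM or more were past 2-fold upward and 0 downward. Over all genes tested, 3.55% were at least 2-fold higher and 4.69% at least 2-fold lower. The median of the members was 0.63, against 0.08 for all genes. In home clusters the ratios widened to 2.18 (2.03 to 2.44) for Il17rd and 2.02 (1.88 to 2.25) for Dusp6. Spred1 narrowed to 1.07, with an interval of 0.92 to 1.25 that crosses the 2-fold mark. Egr1 became at least 2-fold lower (-1.31, against -0.36 for all cells). This made 3 higher and 1 lower of 8, where 4.82% and 7.57% of all genes were. Etv5 lay just inside the mark over all cells (-0.98) and at -0.60 in home clusters.

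Of 19 measured cascade genes, 0 were at least 2-fold higher in primed cells and 1 was lower, the adaptor gene Gab1 (24 against 76 CPM, log2 ratio -1.65, and -2.87 in home clusters), which is near the shares of 3.55% and 4.69% over all genes. Among 14 other feedback inhibitors 0 passed 2-fold, with Spred3 (0.88) and Dusp5 (0.74) the farthest up, and in home clusters Spred3 (1.11) was the 1 of 12 that did. Of 15 other ERK target genes, 1 passed, Etv1, the third PEA3 factor (1.17, and 1.74 in home clusters). None of the 10 immediate early genes passed 2-fold. FGF ligand genes differed in both directions. Fgf15 (log2 ratio 2.60), Fgf8 (2.44) and Fgf5 (1.10) were higher in primed cells, and Fgf4, the ligand of naive cells, was lower (-2.78, 4.59 against 37.4 CPM).

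Day 8 cells were compared with primed cells for the change over the first days of the treatment. These cells gained AICAR and LIF, lost FGF2 and Activin A and moved to a serum-containing medium. The effects of these changes cannot be told apart. The groups also differed in cell type markers. Macrophage markers were at 2901 CPM in d8 and 712 CPM in primed cells, and epithelial markers at 2633 and 1228 CPM. Smooth muscle markers were at 1031 and 411 CPM, while fibroblast markers went the other way, at 1536 and 1742 CPM. The part of cell type in the ratios was not tested. Etv5 (-1.19) and Egr1 (-1.01) were at least 2-fold lower at d8, and Dusp4 was the member farthest up (0.85). This gave 0 higher and 2 lower of 8 members, beside 3.53% and 3.28% of all genes, and a member median of -0.61 against -0.02. Set against the primed home cluster, Etv5 (-1.77) and Etv4 (-1.43) were lower, Dusp4 was higher (1.29) and Egr1 was close to level (-0.13). That is 1 higher and 2 lower of 8 members, beside 14.8% and 8.68% of all genes. The lower Egr1 at d8 thus depended on the Egr1-rich cells under the primed tag. Dusp6 (-0.37, and -0.49 against the home cluster) and Spry2 (-0.47 and -0.72) stayed within 2-fold. Over all cells, 0 of 19 cascade genes, 0 of 15 other inhibitors and 0 of 10 immediate early genes passed 2-fold, and 1 of 16 other targets was higher, Emp1 (1.34, 353 against 139 CPM). Against the primed home cluster, 6 of 14 other inhibitors, such as Dusp10 (1.47), and 7 of 16 other targets were higher, and 0 were lower in both lists. On the same basis 2 of 19 cascade genes, Gab1 (1.34) and Sos1 (1.01), and 3 of 10 immediate early genes, Btg2 (1.39), Jun (1.35) and Junb (1.01), were higher, where 14.8% of all genes were. The ligand genes Fgf15 (-2.25) and Fgf8 (-1.26) were lower at d8 among 5 FGF inputs.

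The Dppa5a-high and Dppa5a-low cells of d16 shared medium and tag. Etv5 was 6.76 times as high in Dppa5a-high cells (log2 ratio 2.76, 2.70 to 2.92) and Etv4 was also higher (1.04), whereas Egr1 (-1.47), Dusp6 (-1.27), Spred1 (-1.11) and Spry4 (-1.09) were lower. Spry2 (0.18) and Il17rd (-0.18) were within 2-fold. Thus 2 of 9 members were at least 2-fold higher and 4 lower, where 11.2% and 16.6% of all genes were, and the member median was -0.77 against -0.03. No MEK inhibitor was listed for either kind of cell, and they also differed in cell type markers. Fibroblast markers were at 546 CPM in the high and 3574 CPM in the low cells, and neural markers at 386 and 833 CPM. Among the cell type lists only the naive and endothelial markers were higher in the high cells. The endothelial sum was small, 80.7 CPM in the high and 41.7 CPM in the low cells. Its list includes Pecam1, whose protein the paper used as a naive marker. Cluster 3, led by Fabp7, held 49.9% of the reads of the low cells, and the fibroblast-like cluster 6 held 19.7%. The part of cell type in these ratios was not tested.

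The lists of other pathway genes are read against the same shares, 11.2% of all genes higher and 16.6% lower. Of 15 other ERK target genes, 10 were at least 2-fold lower in Dppa5a-high cells and 0 higher, led by Egr2 (-2.52) and Egr3 (-2.50), zinc finger factors related to Egr1. Of 10 immediate early genes that cell handling can raise, 9 were lower, with Fos at 357 against 1820 CPM and Fosb at 103 against 647 CPM. Fos belongs to both of these lists and is counted in each. Among 13 other inhibitors, Dusp9, an ERK phosphatase, was higher (1.99, 72.4 against 17.4 CPM) and 5 were lower, with Dusp8 at -1.78 and Lrig1 at -1.63. Of 19 cascade genes, Gab1 (1.22) and Rps6ka1 (1.06) were higher and Mapk3, which encodes ERK1, was lower (-1.22, 40.5 against 95.5 CPM), counts no larger than the shares over all genes. Of 7 FGF inputs 1 was higher, Fgf4 (32.0 against 2.43 CPM), and 4 were lower, such as the receptor gene Fgfr2 (8.13 against 39.3 CPM).

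The d16 Dppa5a-high cells were compared with primed cells, the population from which they came. As at d8, the added AICAR and LIF, the loss of FGF2 and Activin A and the other medium cannot be told apart. Il17rd (-1.80, 22.7 against 81.6 CPM), Dusp6 (-1.67) and Dusp4 (-1.20) were at least 2-fold lower and Etv5 was higher (1.45), while Spry2 (-0.55), Spred1 (-0.82) and Egr1 (0.12) were within 2-fold. This gave 1 member higher and 3 lower of 8, beside 6.49% and 4.78% of all genes, and a member median of -0.69 against -0.04. Between home clusters, Il17rd (-2.06, -2.28 to -1.94) and Dusp6 (-1.90, -2.10 to -1.78) were lower still, Dusp4 (-0.85) came inside the mark, and Etv5 lay at 0.96 with an interval of 0.86 to 1.08. The count was then 0 higher and 2 lower of 8, beside 9.69% and 3.88% of all genes. Egr1 was 0.88 between home clusters, on the upper side.

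The other lists are read beside the same 6.49% and 4.78% of all genes. Gab1 (1.73) and Rps6ka1 (1.07) were higher of 19 cascade genes, and Dusp9 (1.53) was higher while Spred3 (-1.08) and Dusp8 (-1.06) were lower of 14 other inhibitors. In home clusters Dusp8 had under 10 CPM in both groups, and Spred3 (-1.35) was the 1 lower of 11. Phlda1 (-1.01) was the 1 other ERK target gene of 15 past 2-fold over all cells. Etv1 (-1.24) was the 1 in home clusters. None of the 10 immediate early genes passed 2-fold on either basis. Fgf15 (-3.20), Fgf8 (-2.84) and Fgf5 (-1.80) were lower and Fgf4 was higher (2.56) in Dppa5a-high cells.

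The d16+10p cells descend from d16 cells. Passage in 2iL added the MEK and GSK3 inhibitors, took AICAR away and changed the medium, and the effects of these cannot be told apart. Against d16 Dppa5a-high cells, d16+10p cells had log2 ratios from -0.39 (Spry2) to 0.17 (Etv4) for the 9 genes, with Dusp6 at 0.10 (-0.05 to 0.26), Il17rd at 0.05 (-0.12 to 0.23), Etv5 at -0.38 (-0.45 to -0.31) and Egr1 at 0.04. Of 7 members with 10 CPM or more, 0 were past 2-fold in either direction, beside 0.557% of all genes higher and 1.63% lower. In home clusters the counts were also 0 and 0 of 7, beside 0.732% and 1.58%, and the largest ratio was -0.49 for Spry2. The intervals of Dusp6 and Il17rd over all cells include 0, which does not show that the levels are equal. Because so few genes differed at all, counts of 0 are near the background. In the 5 other lists of the pathway, 0 genes passed 2-fold between these groups. Dusp9 was farthest down among the other inhibitors (-0.72) and Map2k2, which encodes MEK2, farthest up in the cascade (0.77).

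Against naive cells, which also grew in 2iL, d16+10p cells again had 0 of 8 members past 2-fold in either direction. Of all genes, 0.862% were higher and 0.614% lower. The ratios ran from -0.51 (Dusp4) to 0.17 (Etv4), with Dusp6 at -0.24 and Il17rd at -0.27. In home clusters Dusp6 was at 0.06 (-0.14 to 0.26), Il17rd at -0.08 and Etv5 at 0.02, with 0 of 7 members past 2-fold, beside 1.05% and 1.22% of all genes. Spry2 was lower on both bases (-0.37 and -0.39). Of the other lists, 0 genes passed 2-fold on either basis, and Etv1 was the other ERK target farthest up (0.72 over all cells and 0.96 in home clusters).

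**Figure D3:**
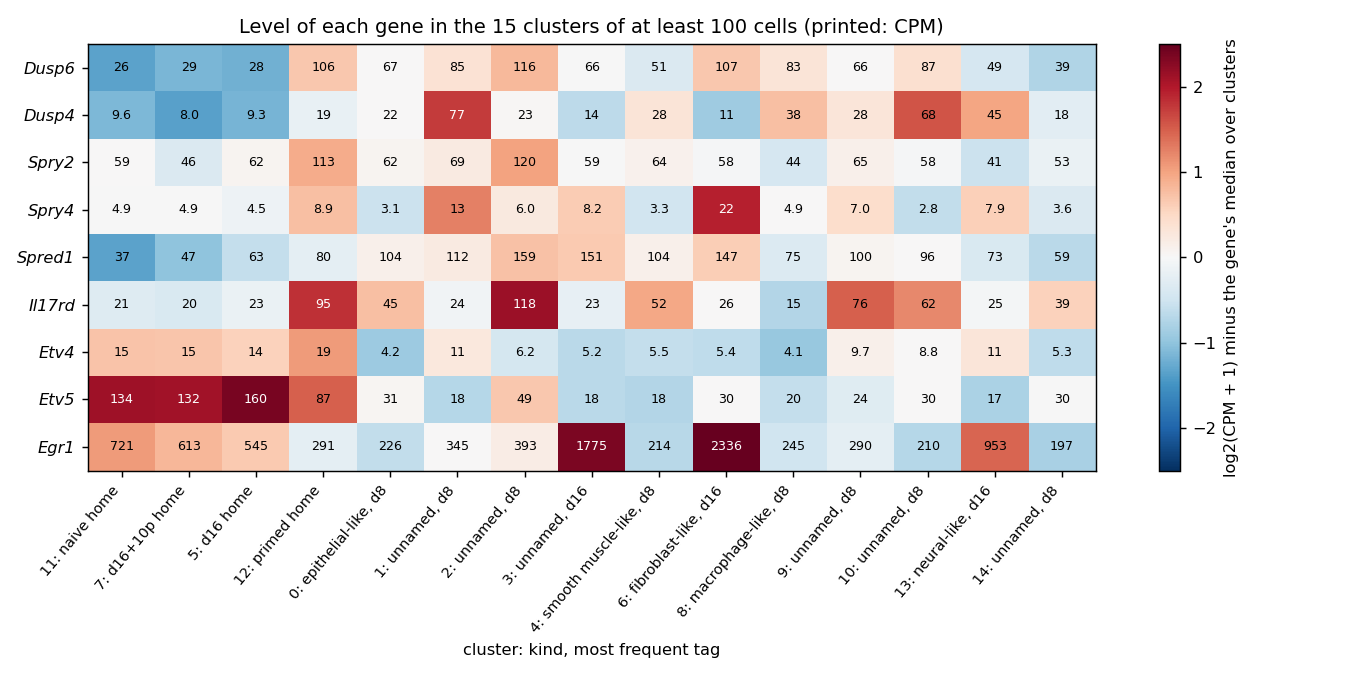
The heat map gives the 9 genes (rows) in the 15 clusters of at least 100 cells (columns, with the most frequent tag), colored by log2(CPM + 1) minus the median of the gene over clusters, with CPM printed in each cell. The 3 home clusters of naive, d16+10p and d16 cells are low in Dusp6 and Spred1 and high in Etv5, and clusters 3 and 6 stand out for Egr1.

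Across the 15 clusters of at least 100 cells, the peaks of the 9 genes fell in several clusters. Dusp6 ran from 25.7 CPM in the naive home cluster to 116 CPM in cluster 2, whose leading genes included Lefty1 and Lefty2, inhibitors of Nodal signaling, and which held 69.1% d8 cells. Cluster 2 also had the highest Il17rd (118 CPM), Spry2 (120 CPM) and Spred1 (159 CPM). Next after it came the primed home cluster for Il17rd (95.1 CPM) and Spry2 (113 CPM). Within cluster 2 Dusp6 was at 107 CPM in 50 naive-tagged cells, 110 CPM in 1328 d8-tagged cells and 137 CPM in 417 primed-tagged cells. Whether these cells came from the culture of their tag was not tested. Of the naive tag, cluster 2 held 9.02% of the Dusp6 reads with 3.25% of all reads.

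Etv5 had its 3 highest levels in the naive-like clusters, 160 CPM in cluster 5 (d16), 134 CPM in cluster 11 (naive) and 132 CPM in cluster 7 (d16+10p), followed by 87 CPM in cluster 12 (primed), and its lowest in the neural-like cluster 13 (16.9 CPM). Cluster 5 had 8 of the 9 naive markers among its first 100 genes by fold, and its leading genes were germ cell genes such as Dazl and Stra8. Etv4 peaked in the primed home cluster (19.4 CPM). Dusp4 was highest in clusters 1 (76.8 CPM) and 10 (68.3 CPM), the latter led by T and Shh, and lowest in cluster 7 (8.04 CPM). Spry4 was highest in the fibroblast-like cluster 6 (21.7 CPM), 7.63 times its lowest level.

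Egr1 was highest in cluster 6 (2336 CPM) and in cluster 3 (1775 CPM), a d16 cluster led by Fabp7, Rfx4 and Aqp4, and lowest in cluster 14 (197 CPM). Of d16 Dppa5a-low cells, cluster 3 held 56.3% of the Egr1 reads with 49.9% of all reads, and cluster 6 held 28.6% with 19.7%. In primed-tagged cells, cluster 6 held 34.5% of Egr1 reads with 7.3% of all reads. Egr1 in cluster 6 was high under every tag, at 2294 CPM in naive-tagged, 2537 CPM in primed-tagged, 1736 CPM in d8, 2335 CPM in d16 and 2862 CPM in d16+10p-tagged cells. Under each of the 5 tags this was above the Egr1 level over all cells of the tag or of either part of d16. The culture of origin of these tagged cells was likewise not tested.

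**Figure D4:**
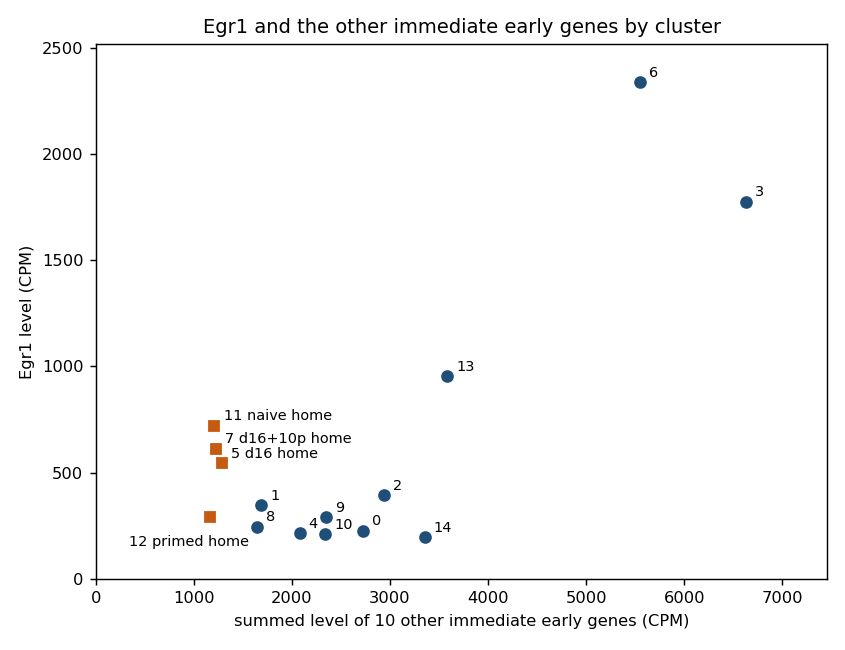
Each point is 1 of the 15 clusters, with the summed level of 10 other immediate early genes in CPM (x axis) and Egr1 in CPM (y axis), and orange squares are the home clusters. Clusters 3 and 6 are highest on both axes, and the naive home cluster has more Egr1 (721 CPM) than the primed home cluster (291 CPM) at a like summed level (1210 and 1163 CPM).

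Egr1 is also raised by dissociation of cells, so the other immediate early genes were read beside it. Their summed level was 1520 CPM in naive, 2262 CPM in primed, 2205 CPM in d8, 1480 CPM in d16 Dppa5a-high, 5674 CPM in d16 Dppa5a-low and 1227 CPM in d16+10p cells. The high Egr1 of d16 Dppa5a-low cells went with the highest sum, and the part of handling in it was not tested. Between home clusters the sums were close, 1206 CPM in naive, 1152 CPM in primed, 1251 CPM in d16 and 1045 CPM in d16+10p cells, while Egr1 differed from 290 CPM in primed to 723 CPM in naive cells. Single genes of the sum went both ways in primed against naive home clusters, with log2 ratios from -0.53 (Ier2) to 0.45 (Fosb).

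The genes with the most similar levels over these 15 clusters differed from member to member, by Pearson r of log2(CPM + 1) among 6841 genes (6842 for Spry4 and Etv4). For Etv5 they were Spc24, Ube2s and Ticrr (r = 0.97 for each), and for Egr1 Mgarp (0.95), Gys1 (0.93) and Gpi1 (0.90). For Il17rd they were Cdc123 (0.91), Prtg (0.89) and Eif4g1 (0.87). Dusp6 was followed by Fundc2 (0.81), by its fellow member Spred1 (0.80) and by Ccnd2 (0.80). Spry2 was followed by Abcg2 (0.82), Taf9 (0.77) and Il17rd (0.77). For Dusp4 they were Exoc5 (0.87), H13 (0.87) and Zswim6 (0.86), for Spry4 P3h3 (0.88), Agtr2 (0.85) and Tmem45a (0.85), for Spred1 Acadl (0.88), Ift43 (0.87) and Manea (0.86), and for Etv4 Psmd7 (0.87), Vars (0.86) and BC085271 (0.86). Among the members, r was 0.66 between Etv4 and Etv5, 0.66 between Egr1 and Spry4, -0.50 between Dusp6 and Etv5 and -0.69 between Dusp4 and Etv5. All 15 points come from 1 library and several are related kinds of cell, so these values are a description only.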

How the data were processed

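The deposited table holds raw counts, which the authors made by trimming with cutadapt 2.10, mapping with Bowtie2 2.3.4.1 to Ensembl transcripts of GRCm38.p6, adding up reads of a symbol per cell barcode and removing cells with an ambiguous tag as doublets. The labels also name Seurat 2.3.4. No collapsing of molecules is described, so counts are reads, and symbols with near-identical copies can share them. The table had 17720 cells and 307121033 reads. No cell was removed here. An alternative of more than 2000 and fewer than 8000 genes left 15628 cells. The tag of a cell was read from its column name, with 0 columns unmapped.

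Clusters were rebuilt here (Seurat 5.3.0, R 4.3.3) from the study's settings, namely 2000 variable genes, 56 components, 50 neighbours, resolution 0.8, after taking out the listed ERK genes, which left 1989 variable genes. A home cluster had Pou5f1 at 25% or more of the highest cluster, a Pou5f1 read in at least 75% of cells and at least 50 cells of the tag, and was the one most enriched for the tag. Cluster names need at least 3 listed markers among the first 100 genes by fold, and fewer than 3 of any other list. A rebuilt cluster can differ from that of the study.

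CPM, exact Poisson and exact binomial (Clopper-Pearson) intervals at 95%, and log2 ratios with a pseudocount of 1 CPM (interval from the exact binomial of both sums, without the pseudocount) were computed in Python 3.11.15 with scipy 1.17.1. Genes with 10 CPM or more in one of the groups compared entered the counts of calls. Shares were computed after thinning to 5000 reads, leaving out 40 to 755 shallower cells per group. TMM factors came from edgeR 4.0.16, and the computation of ratios and intervals was checked on simulated counts. Members, gene lists and the naming rule (the 9 members, up to 4 genes of each list by ratio, 3 closest genes per member) were chosen with earlier results of these data known.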

Additional observations from a re-analysis of the deposited data

How the results depend on the processing

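Each population was 1 sample, so replicate error is unknown and no replicate could be left out. No paired analysis was possible because no group had a second sample. Of 100 counts of members past 2-fold under other settings, 89 stayed as given. Among 450 log2 ratios 0 that were past 2-fold changed sign, although 123 moved outside the counting interval. Shares were less stable, with 69 of 135 moved and 66 the same. Of 9 highest cluster levels, 4 moved and 5 stayed the same. In primed against naive cells, 1 member was at least 2-fold lower, in place of 0, with TMM factors, with the mean CPM per cell, with thinned reads and in home clusters. In d8 against primed cells, the 2 lower members became 0 with a pseudocount of 10 CPM, and 1 with TMM factors, with the mean CPM per cell and with the limits on genes per cell, while 1 member in place of 0 was higher against the primed home cluster. With a pseudocount of 10 CPM, 1 member in place of 2 was at least 2-fold higher in d16 Dppa5a-high against d16 Dppa5a-low cells. Against the primed home cluster, 0 members in place of 1 were at least 2-fold higher in d16 Dppa5a-high cells and 2 in place of 3 lower. The choice of primed cells moved the Egr1 ratio in primed against naive cells from -0.36 to -1.31. Levels under 10 CPM, as for Spry4, are limited by depth.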
